A study of Bos taurus with 28 samples.

Results

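The genes described here encode the machinery that makes, folds and removes proteins, measured in subcutaneous adipose tissue (AT) of dairy cows before and after calving. Membership was decided by gene name and read number, though the families were picked with earlier results of these data known. Included were all Ensembl genes of the count files whose symbol began with RPL, RPS, MRPL, MRPS, EIF, EEF, PSM, UBE, USP, FBXO, FBXL, HSP, DNAJ, CCT and a digit, DDX, NOP or SRP, or ended in ARS, ARS1 or ARS2. A symbol was at hand for 1863 of the 24616 genes in the files, and 80 genes fitted the rule. All 80 had at least 3 reads in at least 1 library, as had 18905 genes in all. The genes fell into 10 groups by role: 10 cytosolic ribosomal proteins, 8 translation factors, 3 aminoacyl-tRNA synthetases, 3 proteins of ribosome assembly, 9 heat shock and J-domain chaperones, 8 proteasome genes, 9 ubiquitin-conjugating, ubiquitin ligase and F-box genes, 6 genes named as ubiquitin-specific peptidases, 5 kinases whose symbols merely share a prefix, and 19 mitochondrial ribosomal proteins. No gene of the chaperonin (CCT) or signal recognition particle family was among them.

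Ribosomes read messenger RNA and join amino acids, which the aminoacyl-tRNA synthetases load onto transfer RNA, while initiation factors bring ribosome and message together. Chaperones hold or refold the chains, and proteins to be removed are tagged with ubiquitin by conjugating enzymes and ligases, trimmed by deubiquitinases and degraded in the proteasome. A separate ribosome inside mitochondria makes a small set of respiratory chain subunits, and in adipocytes the mitochondria also serve fat synthesis and fat oxidation.

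The study followed Holstein cows through the weeks in which body fat is mobilised for milk, and asked how AT transcription changes with calving and early lactation. Whole biopsies of flank subcutaneous AT from multiparous cows were sequenced at 3 time points, with no treated group or genotype in the design. PreP was taken about 11 d before calving (9 libraries), PP1 about 6 d after it (10 libraries) and PP2 about 13 d after it (9 libraries). The 28 libraries came from 11 cows, of which 8 gave all 3 time points, so PP1 and PP2 were both compared with the same PreP libraries, and no group of non-calving cows separates time from calving. The ration also changed at calving, from a close-up to a fresh diet, so diet and calving cannot be told apart.

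Libraries held 15293154 to 22284884 counted reads, at which 3 reads amount to 0.127 to 0.200 CPM, the read count scaled to library size that gives all levels below. The adipocyte markers at hand (6 of 12 listed) summed to 1110 to 3490 CPM at PreP, 186 to 2500 CPM at PP1 and 200 to 2010 CPM at PP2, and the macrophage markers (8 of 10) to 289 to 608, 349 to 1520 and 193 to 763 CPM. Milk epithelium markers (3 of 6) stayed at or below 7.76 CPM, and the casein gene CSN2 had 1 read in the 28 libraries. In such bulk samples, fewer cells of a type and less RNA per cell cannot be told apart.

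A few libraries stood apart and touch the results that follow. In the PP2 library of cow B5090, 9 skeletal muscle markers (of 16 listed) summed to 10300 CPM, against at most 38.6 CPM in the other PP2 libraries, 25.6 CPM at PP1 and 22.4 CPM at PreP. The PP2 libraries of cows B4886 and B5064 held 34.6% and 35.2% of all compared genes below 0.5 times the median of the other PP2 libraries, a share that was at most 16.8% elsewhere. Both libraries labelled for cow B5169 were unlike their groups: the gluconeogenic and glyceroneogenic enzyme gene PCK1 stood at 17.4 CPM in its PreP library, where the other PreP libraries ranged from 46.2 to 186 CPM, and at 196 CPM in its PP1 library, where the others reached at most 52 CPM. The macrophage gene CD68 stood at 100.5 CPM in its PreP library, the highest at PreP (others 17.6 to 78.7 CPM), and at 30.7 CPM in its PP1 library, against 101 to 354 CPM in the other PP1 libraries. Levels of both genes thus lay within or next to the range of the other time point, while the adipocyte marker sum of its PreP library was the highest at PreP (3490 CPM). Whether the labels of these libraries were exchanged was not tested. They were used as given, which bears on each count of cows and each call at PP1 below. Calls that rest on these libraries are given with and without them.

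In the main edgeR fits few of the protein synthesis, folding and turnover genes were called, as were few of all genes. The PP1 count depended on 1 library. Without that of cow B5169 at PP1, 16 of the 80 were called (20%), beside 18% of all genes. At PP1, 3 of the 80 genes were lower than at PreP and 0 were higher (edgeR, FDR under 0.05), or 3.75%, where 6.32% of all 18467 genes tested were called, 4.9% higher and 1.43% lower. The 3 were FBXO31, an F-box protein that hands substrates to a ubiquitin ligase, and the mitochondrial ribosomal proteins MRPL4 and MRPL9. The median log2 fold change of the 80 genes was 0.003, against 0.036 over all genes, and 71 of the 80 lay within 0.5 of 0 on the log2 scale. At an unadjusted p under 0.05 there were 16 of the 80, where 24.6% of all genes lay under it. Past an absolute log2 fold change of 1 as well, 0 of the 80 were called, where 4.03% of all genes were.

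At PP2, 0 of the 80 genes were called against PreP, where 6.35% of 18558 genes were, 3.84% higher and 2.51% lower. Their median log2 fold change was 0.037 (0.099 over all genes), 47 lay above 0 and 33 below, and the smallest FDR was 0.0673, that of MRPL4. The side on which most genes lay was not stable: 49 of 80 were below 0 with the cow as a block, 46 without the B5090 library, 42 with total counts in place of TMM scaling and 41 with limma-voom. At an unadjusted p under 0.05 there were 11 of the 80, where 21.4% of all genes lay under it, and 5.47% of all genes were called past an absolute log2 fold change of 1. Between PP2 and PP1, 0 of the 80 and 0 of 18518 genes were called by edgeR (a background of 0%), with 4 of the 80 at an unadjusted p under 0.05, where 5.6% of all genes lay under it. DESeq2 and limma-voom called 0 genes there too, while a likelihood ratio test called 160 genes and a fit over all 3 time points 176, none of them among the 80.

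**Figure D1:**
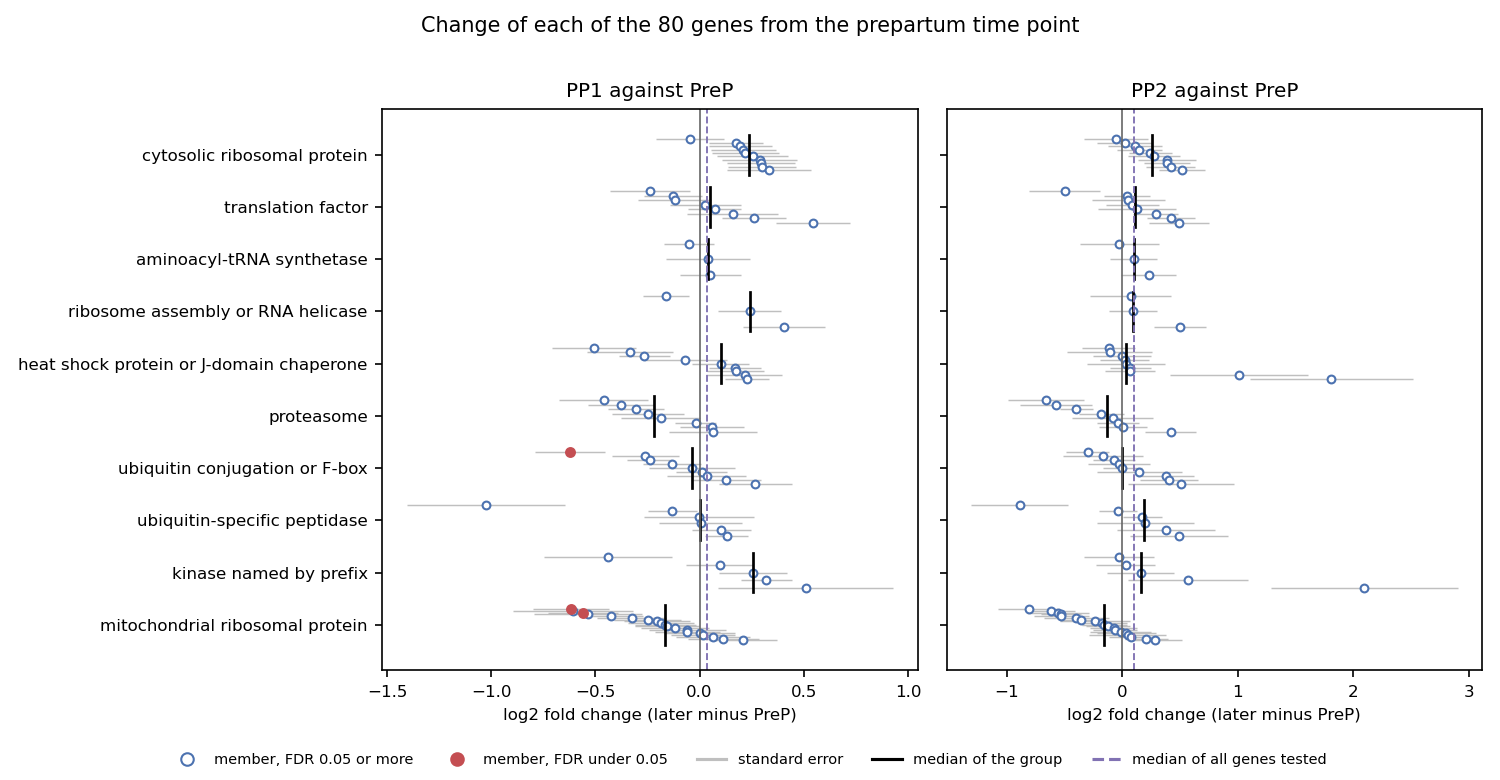
Log2 fold change of each of the 80 genes (points with standard errors, by group) at PP1 and at PP2 against PreP from edgeR, with called genes filled, group medians as bars and the median of all genes dashed. Most points lie near 0, the mitochondrial ribosomal and proteasome genes lie mostly below it (14 of 19 and 6 of 8 in both comparisons), and the cytosolic ribosomal proteins mostly above it (9 of 10 in both). Of all genes, 46.6% lay below 0 at PP1 and 41.1% at PP2.

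Cytosolic ribosomal proteins held the largest share of counts of the 10 groups, 0.634% ± 0.0997 (SD, n = 9) of all counts at PreP, 0.738% ± 0.117 (n = 10) at PP1 and 0.717% ± 0.213 (n = 9) at PP2. None of the 10 genes was called in any comparison. Fitted differences nevertheless lay on one side: 9 of 10 were above 0 at PP1 (median log2 fold change 0.24, from -0.05 for RPLP2 to 0.33 for RPS28) and 9 of 10 at PP2 (median 0.26, from -0.06 for RPL5 to 0.51 for RPS28). These genes share libraries, so their number does not stand for separate observations. Of all genes, 46.6% lay below 0 at PP1 and 41.1% at PP2. The genome also carries many near-identical copies of ribosomal protein genes, and how shared reads were counted is not given in the sources used here, so their levels are uncertain.

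RPS28, a small-subunit protein, ranged from 261 to 560 CPM at PreP (median 361), from 336 to 1024 CPM at PP1 (median 434) and from 337 to 799 CPM at PP2 (median 585). The 3 ranges overlapped, and the lowest libraries at PP1 and PP2 were both those of cow B5169. Its log2 fold change was 0.33 (SE 0.201, FDR 0.317) at PP1 and 0.51 (SE 0.200, FDR 0.131) at PP2, with 5 and 6 of 8 cows higher. RPS12, another small-subunit protein, stood at 767 ± 142 CPM at PreP, 941 ± 256 CPM at PP1 and 1008 ± 489 CPM at PP2, and its log2 fold changes of 0.29 and 0.39 had FDRs of 0.273 and 0.401. The spread at PP2 ran from 423 CPM in cow B5064 to 1909 CPM in cow B5165.

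Among the translation factors 0 of 8 were called, with medians of 0.05 and 0.11 on the log2 scale at PP1 and PP2. EIF4A1 encodes the helicase that unwinds the start of messenger RNAs for ribosome loading. It ranged from 172 to 316 CPM at PreP (median 212), from 197 to 595 CPM at PP1 (median 291) and from 156 to 650 CPM at PP2 (median 229). PP1 levels lay mostly above those of PreP but overlapped them, with the highest PP1 library that of cow B5054, which gave no PreP sample. The log2 fold change of EIF4A1 was 0.54 (SE 0.177, FDR 0.0671; 7 of 8 cows higher) at PP1 and 0.49 (SE 0.257, FDR 0.279; 5 of 8) at PP2, and without the PP1 library of cow B5169 it was 0.58 and passed the threshold in a fit that called 9.31% of all genes higher.

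EIF1, which guards the choice of start codon, stood at 498 ± 101 CPM at PreP, 457 ± 71.9 CPM at PP1 and 535 ± 285 CPM at PP2. The PP2 mean rested on cow B5090 at 1269 CPM, with the next library at 604 CPM, and the log2 fold changes were -0.13 (FDR 0.608) and 0.09 (FDR 0.699), the latter being -0.15 (FDR 0.681) without that library. EEF1E1, a scaffold protein of the multi-enzyme synthetase complex, stood at 16.6 ± 4.73, 14.1 ± 4.36 and 11.8 ± 5.57 CPM, with log2 fold changes of -0.24 (FDR 0.465) and -0.50 (FDR 0.373), the latter being -0.23 (FDR 0.506) without the libraries of B4886 and B5064. The 5 other translation factors, EIF3A, EIF3D, EIF3G and EIF3J of the initiation complex that binds the small subunit, and EIF5A, a factor that keeps elongation moving, had log2 fold changes between -0.12 and 0.42 in both comparisons.

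Of the aminoacyl-tRNA synthetases 0 of 3 were called. IARS1, which charges cytosolic tRNA with isoleucine, stood at 30.4 ± 8.08, 31.5 ± 3.10 and 30.2 ± 15.7 CPM, with log2 fold changes of 0.05 and -0.02. MARS2 charges mitochondrial tRNA with methionine. Its levels were 3.03 ± 0.940, 3.12 ± 0.643 and 3.59 ± 1.01 CPM, with log2 fold changes of 0.04 (FDR 0.926) and 0.23 (FDR 0.650), and those of its seryl counterpart SARS2 were -0.05 and 0.10.

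For ribosome assembly the rule found NOP14, a protein of the small-subunit processome, and the helicases DDX10 and DDX49, and 0 of 3 were called. NOP14 ranged from 34.4 to 65.2 CPM at PreP, from 40.5 to 89.1 CPM at PP1 and from 31.9 to 157 CPM at PP2, where cow B5064 stood well above the next library at 97.6 CPM. Its log2 fold change was 0.24 (FDR 0.335) at PP1 and 0.50 (SE 0.225, FDR 0.202) at PP2, with 7 of 8 cows higher at PP2, and 0.17 (FDR 0.555) without the libraries of B4886 and B5064. DDX10 had 0.41 (SE 0.199, FDR 0.209) and 0.07 (FDR 0.941). In a wider list of ribosome assembly genes, 0 of 17 tested were called in either comparison, with medians of 0.02 and 0.00.

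**Figure D2:**
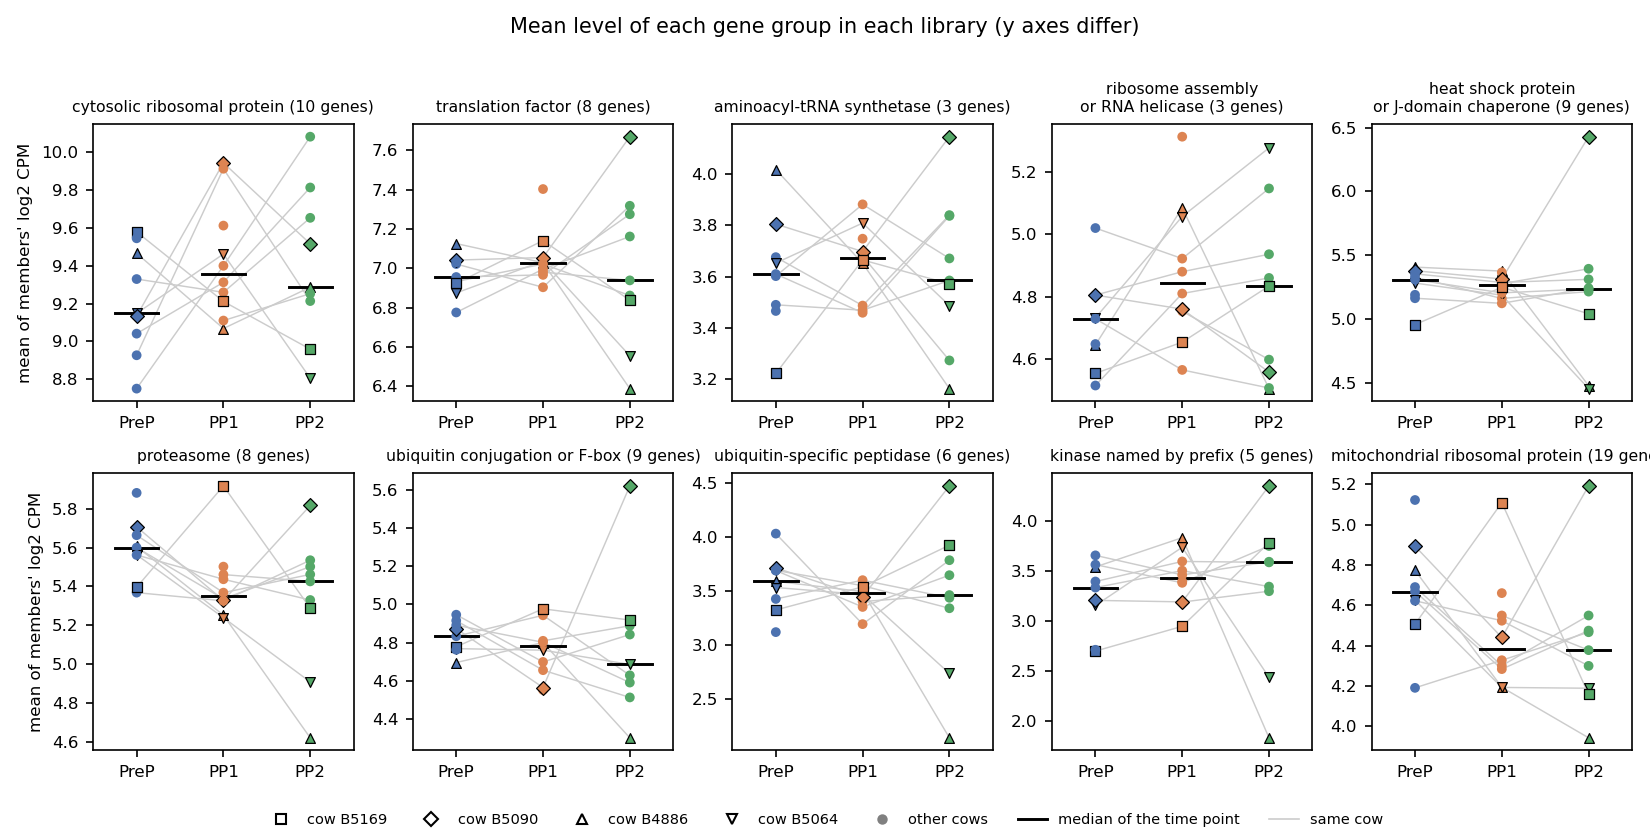
Mean log2 CPM of each group's genes in each library (points, lines joining the same cow), with the median of each time point as a bar and y axes that differ between panels. The SD over the PP2 libraries is largest for the kinases (0.76), the ubiquitin-specific peptidases (0.676) and the chaperones (0.578), and every group overlaps between time points.

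Heat shock and J-domain chaperones held mean shares of counts of 0.101% ± 0.0105, 0.109% ± 0.0154 and 0.109% ± 0.0417 at PreP, PP1 and PP2, and 0 of 9 were called. The share at PP2 ran from 0.0594% in cow B5064 to 0.206% in cow B5090. HSP90AB1, the constitutive cytosolic form of the HSP90 chaperone, stood at 660 ± 133, 744 ± 101 and 694 ± 164 CPM, with log2 fold changes of 0.17 (SE 0.136, FDR 0.454) and 0.07 (SE 0.179, FDR 0.887). The 6 J-domain proteins, which stimulate the ATPase cycle of HSP70 chaperones, had log2 fold changes from -0.26 (DNAJB6) to 0.23 (DNAJC18) at PP1 and from -0.12 (DNAJC7) to 0.07 (DNAJC16) at PP2.

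HSPB8 and HSPB2 are small heat shock proteins, holdase chaperones that are abundant in muscle. HSPB8 ranged from 45.9 to 121 CPM at PreP (median 103), from 45.0 to 112 CPM at PP1 (median 65.7) and from 27.6 to 1296 CPM at PP2 (median 55). The 1296 CPM belonged to cow B5090, the PP2 library rich in muscle transcripts, and the next PP2 library stood at 131 CPM. At PP1 every one of the 8 cows with both samples was lower than at PreP, with a log2 fold change of -0.51 (SE 0.203) that did not pass the threshold (FDR 0.128, and 0.0818 with the cow as a block).

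At PP2 the HSPB8 log2 fold change was 1.01 (SE 0.597, FDR 0.347), and without the B5090 library it turned to -0.42 (SE 0.291, FDR 0.429). HSPB2 depended on the same library: its PP2 level was 24.2 ± 54.2 CPM, from 1.98 to 168.5 CPM with 13.2 CPM next to the highest, and its log2 fold change of 1.81 (SE 0.707, FDR 0.133) became -0.07 (FDR 0.939) without that library. At PP1 it stood at 5.21 ± 0.948 CPM against 6.56 ± 2.43 CPM at PreP, a log2 fold change of -0.33 (FDR 0.332).

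Of 13 related folding genes tested, 1 was called in each comparison (7.69%, beside 6.32% and 6.35% of all genes). FKBP7, a prolyl isomerase of the endoplasmic reticulum (ER), rose at PP1 from 15.2 ± 3.84 to 35.0 ± 23.7 CPM (log2 fold change 1.20, SE 0.306, FDR 0.0234), in 8 of 8 cows. The call was lost without any one of cows B5054, B5090, B5102 or B5129, with FDRs up to 0.0752, and with the cow as a block (1.001, FDR 0.103). It held without the PP1 library of cow B5169 (1.284, FDR 0.00502), in a fit that called 9.31% of all genes higher. UNC45B, a myosin chaperone of striated muscle, was called higher at PP2 (log2 fold change 7.63, FDR 0.024) on the B5090 library alone, at 453 CPM with the next library at 0.360 CPM, and without it the log2 fold change was -0.89 (FDR 0.49). With the cow as a block it was 0.34 (FDR 0.952).

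CRYAB, the small heat shock protein alpha-B crystallin, stood at 22.2 to 257 CPM at PreP (median 88.0), 4.25 to 129 CPM at PP1 (median 17.1) and 8.27 to 1665 CPM at PP2 (median 27.2). The highest PP1 library was that of cow B5169 and the highest PP2 library that of cow B5090, where the next stood at 43.2 CPM. The log2 fold change of CRYAB was -1.65 (SE 0.553, FDR 0.0745; 7 of 8 cows lower) at PP1 and -2.17 (FDR 0.00491) without the first of these libraries. At PP2 it was 0.84 (FDR 0.660) with every library and -2.18 (FDR 0.00303) without the second. Each library left out was the highest for CRYAB at its time point, which by itself lowers the value. The fits without them called 8.68% (PP1) and 3.51% (PP2) of all genes lower. With the cow as a block and every library it was -2.55 (FDR 0.0745) at PP1 and -1.46 (FDR 0.233) at PP2.

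**Figure D3:**
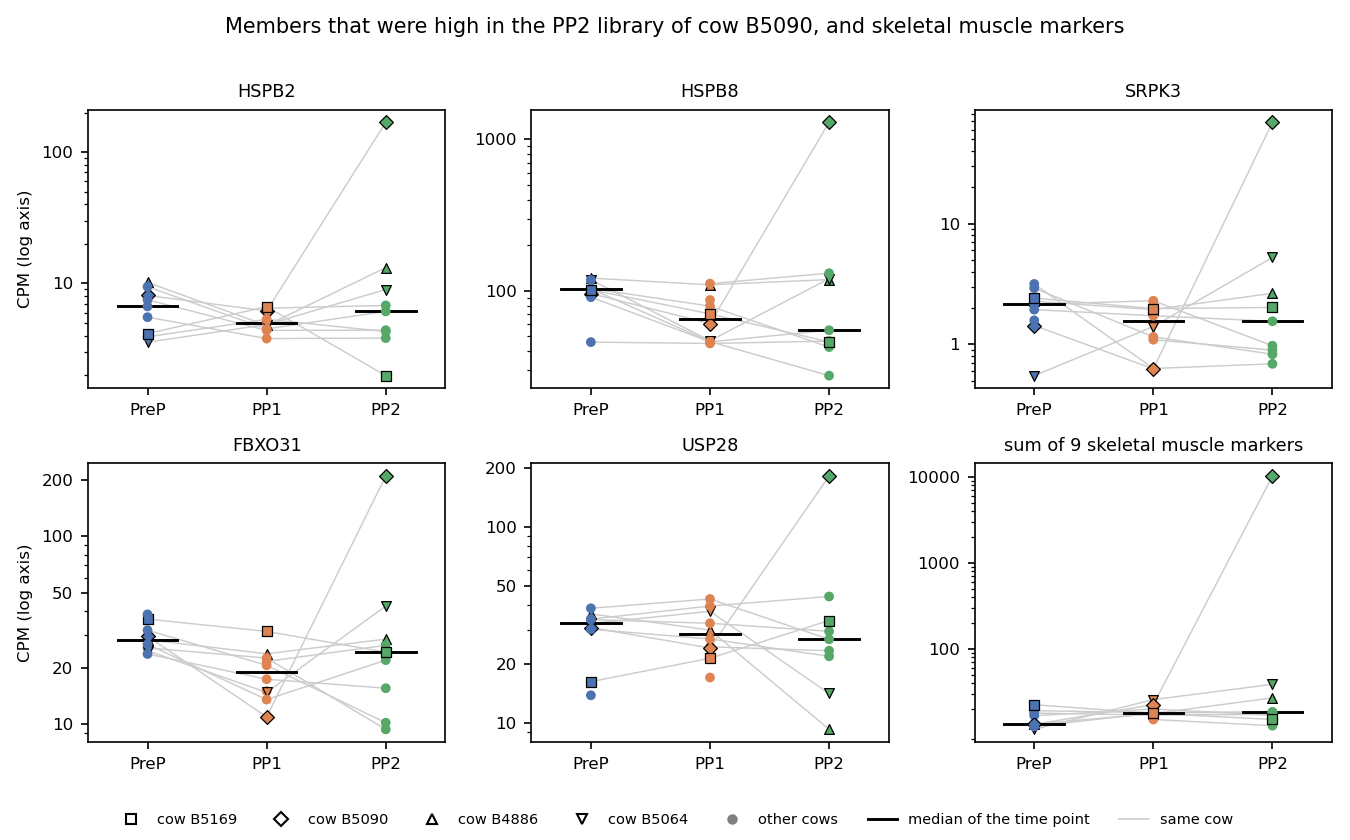
CPM (log axis) of HSPB2, HSPB8, SRPK3, FBXO31 and USP28 and the summed CPM of 9 skeletal muscle markers in each library at PreP, PP1 and PP2, with medians as bars and lines joining the same cow. The PP2 library of cow B5090 lies above every other library in each panel, at 10300 CPM for the markers and 1296 CPM for HSPB8.

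Proteasome genes mostly had fold changes below 0 after calving, and 0 of 8 were called at either time. Their share of counts was 0.0469% ± 0.00292 at PreP, 0.0411% ± 0.00571 at PP1 and 0.0404% ± 0.00459 at PP2. In both comparisons 6 of 8 had log2 fold changes below 0 (medians -0.22 and -0.13), beside 46.6% and 41.1% of all genes. PSMA2, an alpha-ring subunit of the proteasome core, ranged from 46.9 to 113 CPM at PreP (median 70.9), from 32.6 to 122 CPM at PP1 (median 45.5) and from 8.38 to 86.5 CPM at PP2 (median 50.6). The highest PP1 library, that of cow B5169, lay far above the next at 62.4 CPM, and at PP2 cows B4886 (8.38 CPM) and B5064 (11.5 CPM) lay far below the rest, so the ranges overlapped throughout.

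The log2 fold change of PSMA2 was -0.46 (SE 0.214, FDR 0.187; 7 of 8 cows lower) at PP1 and -0.66 (SE 0.327, FDR 0.249; 6 of 8) at PP2, where it was -0.36 (FDR 0.224) without the libraries of B4886 and B5064. The core subunit PSMB2 and the lid subunit PSMD13, named here after their values were seen, had -0.38 (FDR 0.148) and -0.31 (FDR 0.164) at PP1. Without the PP1 library of cow B5169, PSMA2 (-0.68), PSMB2 (-0.49) and PSMD13 (-0.39) each passed the threshold, in a fit that called 18% of all genes, 8.68% lower.

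PSMB8, at values above 0 in both comparisons, encodes the immunoproteasome subunit that replaces a constitutive catalytic subunit in immune cells and under interferon. Its levels were 70.02 to 155 CPM at PreP (median 83.5), 77.2 to 145 CPM at PP1 (median 98.0) and 79.4 to 196 CPM at PP2 (median 116), with cow B5165 the highest each time. The groups overlapped, and the log2 fold changes were 0.06 (SE 0.155, FDR 0.851) and 0.42 (SE 0.218, FDR 0.276). The remaining proteasome genes, PSMA3, PSMD12, the assembly chaperone PSMG3 and PSME3IP1, were called in neither comparison, at -0.57 to 0.06 on the log2 scale.

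Of the 9 ubiquitin-conjugating, ligase and F-box genes, 1 was called at PP1 and 0 at PP2, where 6.32% and 6.35% of all genes were. FBXO31 (ENSBTAG00000002226) marks cyclin D1 and other proteins for degradation. It ranged from 23.6 to 38.4 CPM at PreP (median 28.1), from 10.9 to 31.2 CPM at PP1 (median 18.9) and from 9.37 to 210 CPM at PP2 (median 24.2). PP1 levels lay below the PreP range apart from cow B5169 at 31.2 CPM and a library at 23.7 CPM, while PP2 spread on both sides, with cow B5090 at 210 CPM and the next at 42.5 CPM.

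FBXO31 fell at PP1 in 8 of 8 cows, with a log2 fold change of -0.62 (SE 0.169, FDR 0.0330). With the cow as a block the log2 fold change was -0.60 and the FDR 0.0867, and the call was also lost in 8 of 11 fits that each left out 1 cow (FDR 0.0523 to 0.0777, log2 fold change -0.68 to -0.56 over all 11), remaining only without B4987, B5079 or B5169. At PP2 the log2 fold change was 0.51 (SE 0.456, FDR 0.584), -0.38 (FDR 0.405) without the B5090 library, and -0.70 (FDR 0.0486) without that library and those of B4886 and B5064.

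UBE3A, a HECT-type ligase, stood at 53.4 ± 18.6, 54.7 ± 7.37 and 60.3 ± 40.0 CPM, with log2 fold changes of 0.03 (FDR 0.938) and 0.15 (FDR 0.882), the latter being -0.12 (FDR 0.894) without the B5090 library. That last fit kept the PP2 libraries of B4886 and B5064, at 9.68 and 16.3 CPM against at least 51.9 CPM in the other PP2 libraries. The other 7, the conjugating enzymes UBE2H and UBE2R2, the ligase UBE3B and the substrate receptors FBXL6, FBXL15, FBXO11 and FBXO22, lay between -0.30 and 0.41 in both comparisons. In a list of ubiquitin and proteasome accessory genes, 1 of 18 was called at PP1 (5.56%, beside 6.32% of all genes) and 0 at PP2. That gene, the ubiquitin ligase HACE1, rose at PP1 from 14 ± 2.56 to 21.1 ± 4.42 CPM (log2 fold change 0.59, SE 0.151, FDR 0.0246) in 8 of 8 cows. Its call was lost when any one of B4886, B4987, B5054, B5090, B5102, B5129 or B5165 was left out (FDR up to 0.0687). It was also lost with the cow as a block (0.575, FDR 0.0649). The call held without the PP1 library of cow B5169 (0.655, FDR 0.0021), where 9.31% of all genes were called higher.

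Among the genes named as ubiquitin-specific peptidases, 0 of 6 were called. USP43, a deubiquitinase, ranged from 0.518 to 4.39 CPM at PreP (median 1.49), from 0.266 to 2.16 CPM at PP1 (median 0.973) and from 0.319 to 2.36 CPM at PP2 (median 1.24). Cow B5169 was the highest at each time point, and the ranges overlapped. The log2 fold changes of USP43 were the lowest of all 80 genes in both comparisons, -1.02 (SE 0.381, FDR 0.104; 7 of 8 cows lower) and -0.89 (SE 0.421, FDR 0.226; 6 of 8), and without the PP1 library of cow B5169 it passed the threshold at PP1 (-1.18).

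USP28, a deubiquitinase of MYC and DNA damage proteins, stood at 29.5 ± 8.58, 29.6 ± 8.35 and 42.7 ± 53.1 CPM. Its PP2 value again rested on cow B5090 (182 CPM, next 44.2 CPM), and the log2 fold change of 0.49 (FDR 0.567) was -0.21 (FDR 0.733) without that library. USP38, USP40, USP42 and USPL1, the last a SUMO protease rather than a deubiquitinase, lay between -0.13 and 0.38.

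The 5 kinases were caught by their prefix and are not themselves parts of the machinery, though some act on it. EIF2AK3, the ER stress kinase PERK that holds back initiation, had log2 fold changes of 0.26 (FDR 0.338) and 0.03 (FDR 0.97). RPS6KC1, a ribosomal S6 kinase-like protein, stood at 36.3 ± 4.76, 45.3 ± 8.76 and 40.8 ± 18.2 CPM, with 0.32 (SE 0.123, FDR 0.114; 7 of 8 cows higher) at PP1 and 0.16 (FDR 0.828) at PP2. It passed the threshold without the PP1 library of cow B5169 (0.37) and, at PP2, without the libraries of B4886 and B5064 (0.44, FDR 0.0347), which held it at 6.90 and 13.3 CPM.

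SRPK3, a splicing-factor kinase of striated muscle, had the highest fold change of all 80 genes at PP2. Its levels were 0.552 to 3.17 CPM at PreP, 0.628 to 2.30 CPM at PP1 and 0.692 to 68.8 CPM at PP2, where cow B5090 held 68.8 CPM and the next library 5.25 CPM. The log2 fold change of 2.09 (SE 0.807, FDR 0.126) was -0.14 (FDR 0.894) without that library. RPS6KA6, a kinase downstream of ERK signalling, stood at 1.20 ± 0.772, 1.70 ± 0.871 and 1.79 ± 1.17 CPM, with 0.51 (FDR 0.478) and 0.57 (FDR 0.597), and SRPK2 had 0.10 and -0.03.

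**Figure D4:**
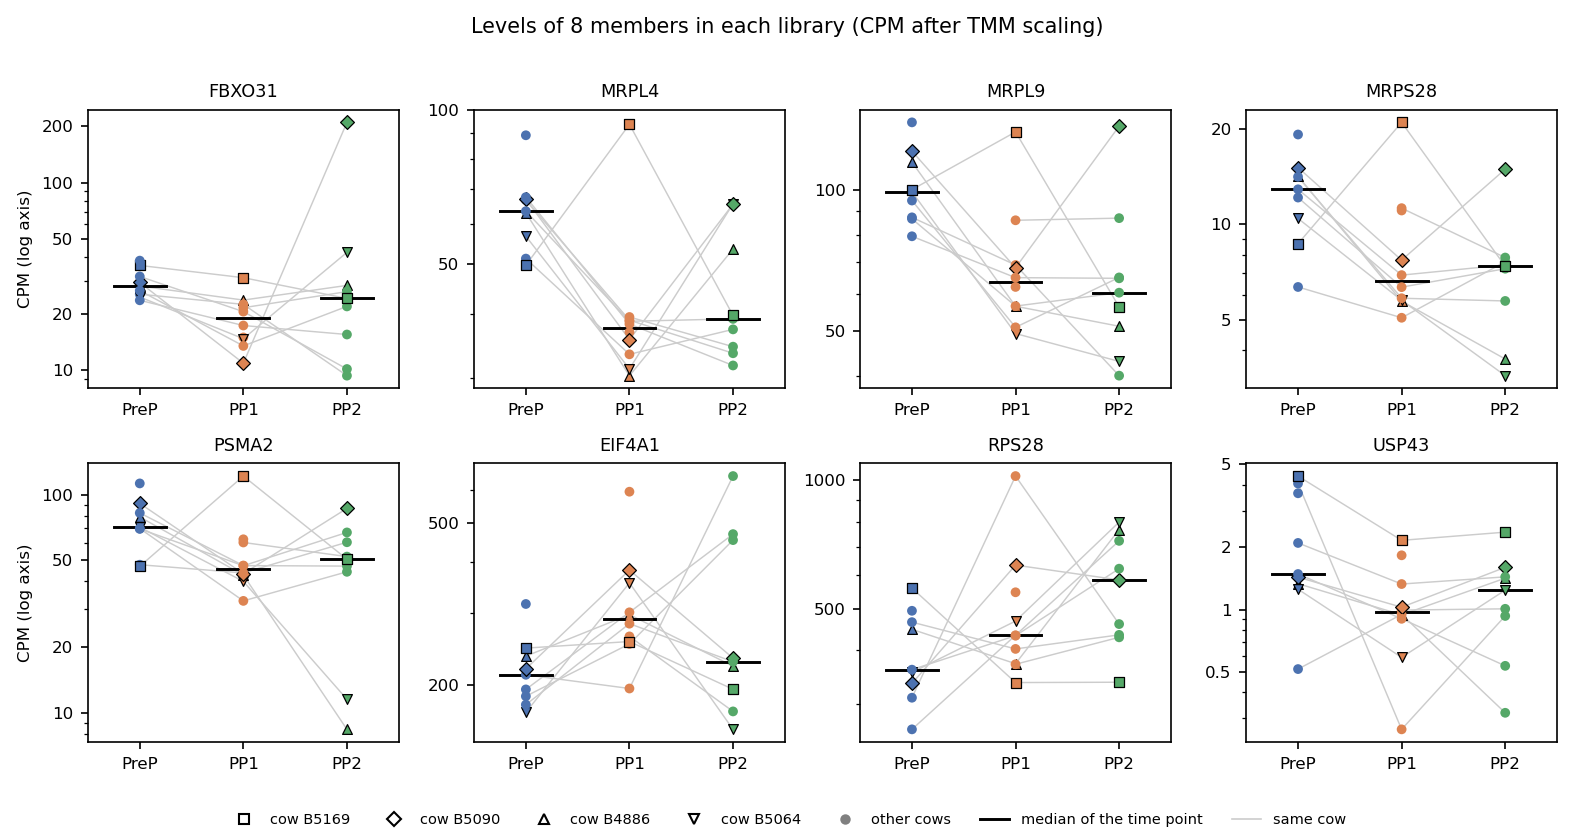
CPM (log axis) of FBXO31, MRPL4, MRPL9, MRPS28, PSMA2, EIF4A1, RPS28 and USP43 in each library at PreP, PP1 and PP2, with medians as bars and lines joining the same cow. The median of FBXO31 goes from 28.1 to 18.9 CPM and that of MRPL4 from 63.4 to 37.5 CPM between PreP and PP1, while cow B5169 stands at 93.6 CPM for MRPL4 at PP1.

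Mitochondrial ribosomal proteins gave the other 2 calls. Their share of counts was 0.0636% ± 0.00637 at PreP, 0.0536% ± 0.00923 at PP1 and 0.0516% ± 0.00664 at PP2, and 14 of 19 had log2 fold changes below 0 at each later time point (medians -0.16 and -0.15). The genes share libraries, and 46.6% and 41.1% of all genes lay below 0 in the same comparisons. At PP1, 2 of 19 were called, both lower, and at PP2 0 were, where 1.43% and 2.51% of all genes were called lower.

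MRPL4 (ENSBTAG00000001419) and MRPL9 (ENSBTAG00000000797) are proteins of the large mitochondrial subunit. MRPL4 ranged from 49.8 to 89.2 CPM at PreP (median 63.4), from 30.3 to 93.6 CPM at PP1 (median 37.5) and from 31.7 to 65.6 CPM at PP2 (median 39.1). At PP1 every library but that of cow B5169 lay below the PreP range, the next being at 39.4 CPM, while at PP2 the upper libraries reached into it. Its log2 fold change was -0.62 (SE 0.182, FDR 0.0470) at PP1 and -0.53 (SE 0.173, FDR 0.0673) at PP2, with 7 of 8 cows lower each time.

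MRPL9 ranged from 79.6 to 139 CPM at PreP (median 99.0), from 49.3 to 133 CPM at PP1 (median 63.5) and from 40.1 to 137 CPM at PP2 (median 60.3). The highest PP1 library was again that of cow B5169 (next 86.1 CPM), and the highest PP2 library that of cow B5090 (next 87.0 CPM). The log2 fold change was -0.56 (SE 0.168, FDR 0.04997), just inside the threshold, at PP1 and -0.62 (SE 0.209, FDR 0.0801) at PP2, again with 7 of 8 cows lower.

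Both calls at PP1 were lost with the cow as a block, at an FDR of 0.124 for MRPL4 and 0.104 for MRPL9. MRPL4 remained called in 1 of 11 fits that left out a cow (without B5169) and MRPL9 in 2 of 11 (without B5079 or B5169), with log2 fold changes of -0.87 to -0.54 and -0.72 to -0.49. Without the B5090 library, 3 of the 80 genes were lower at PP2 (3.75%), where 7.84% of all genes were called and 3.51% were called lower: MRPL4 (-0.60, FDR 0.0387), MRPL9 (-0.79, FDR 0.011) and MRPS28 (-0.98, FDR 0.0204).

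MRPS28, of the small subunit, stood at 12.6 ± 3.78, 8.67 ± 4.85 and 7.26 ± 3.34 CPM, with -0.54 (SE 0.258, FDR 0.202) and -0.80 (SE 0.267, FDR 0.0741) over all libraries and 7 of 8 cows lower in both. The other 16 ranged from -0.61 (MRPL15) to 0.21 (MRPL47) at PP1 and from -0.55 (MRPS14) to 0.28 (MRPS12) at PP2. MRPL15 and MRPS27 (-0.42, FDR 0.0951 at PP1), named after their values were seen, were lower at PP1 in 7 of 8 cows each.

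The neighbouring list of mitochondrial protein quality control gave no call with every library. In it, 10 of 11 genes lay below 0 at PP1 and 9 at PP2 (medians -0.27 and -0.26), beside 46.6% and 41.1% of all genes. LONP1, the matrix protease, stood at 114 ± 25.5 CPM at PreP and 80.9 ± 24.9 CPM at PP1 (log2 fold change -0.49, SE 0.164, FDR 0.0723), and TOMM40, the outer membrane import pore, at 63.9 ± 17.3 and 44.8 ± 22.6 CPM (-0.51, SE 0.221, FDR 0.154). Both genes were named after their values were seen, and in both cow B5169 was the highest at PP1. Without that library the values were -0.62 (FDR 0.00422) and -0.74 (FDR 0.00417), in a fit that called 8.68% of all genes lower.

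With every library, the remaining related lists added 1 gene. In the stress response of translation, 0 of 7 genes were called at PP1 and 1 at PP2 (beside 6.35% of all genes): PPP1R15A, the phosphatase subunit that restarts initiation after stress, rose from 44.2 ± 19.2 to 79.5 ± 23.3 CPM (log2 fold change 0.85, SE 0.239, FDR 0.0385) in 8 of 8 cows, and the call was lost in 8 of 10 fits that left out a cow (FDR up to 0.107), remaining without B5079 or B5169. It passed with the cow as a block (0.93, FDR 0.0466). Without the PP2 library of cow B5090 the log2 fold change of PPP1R15A was 0.895 (FDR 0.0279). Leaving out the PP2 libraries of B4886 and B5064 gave 0.779, and the call was lost (FDR 0.0605). Among genes of protein entry to the ER, 0 of 8 were called, with medians of 0.10 and 0.29. Of all 73 related genes tested, 6 were higher and 10 lower at PP1 without the PP1 library of cow B5169. That fit called 9.31% of all genes higher and 8.68% lower. At PP2, 3 were higher and 6 lower without the PP2 libraries of B4886, B5064 and B5090, where 5.24% and 5.76% of all genes were.

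The number of calls at PP1 depended on cow B5169. Without its PP1 library 16 of the 80 genes were called, 3 higher and 13 lower, or 20%, where 18% of all genes were called, 9.31% higher and 8.68% lower. Without all libraries of that cow, 15 were called, or 18.8%, where 19.4% of all genes were. The 3 higher were EIF4A1, DNAJC18 and RPS6KC1. The 13 lower were DNAJB6, PSMA2, PSMB2, PSMD13, FBXO31, UBE3B, USP43, MRPL4, MRPL9, MRPL15, MRPS14, MRPS27 and MRPS28, with log2 fold changes from -1.18 (USP43) to -0.30 (UBE3B). In the library itself, 7 of 79 genes stood above 2 times the median of the other PP1 libraries and 1 below 0.5 times it, where 9.61% and 14% of all genes did, and its macrophage markers summed to 349 CPM, the lowest at PP1 (median 915 CPM), whose part in the result was not tested.

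**Figure D5:**
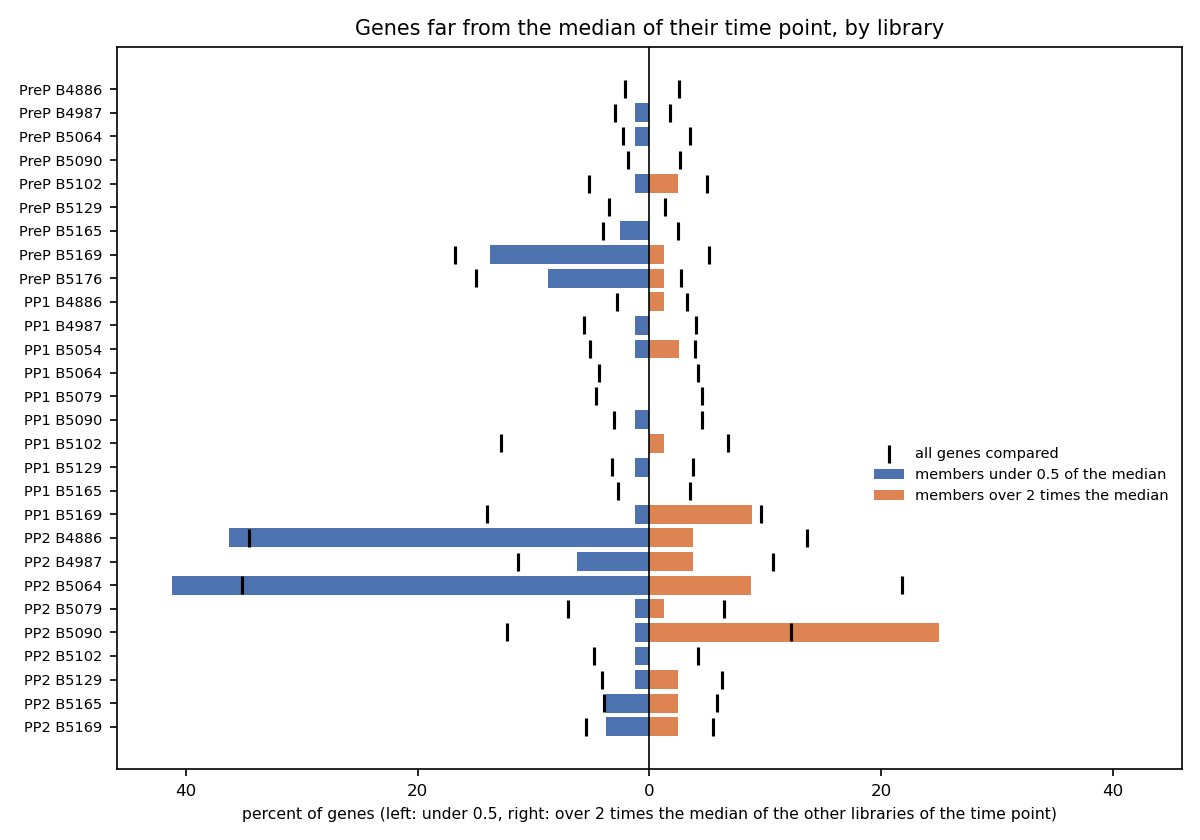
Percent of the 80 genes (bars) and of all compared genes (ticks) that stood below 0.5 times or above 2 times the median of the other libraries of their time point, in each of the 28 libraries. The PP2 libraries of cows B4886 and B5064 have 29 and 33 of 80 genes below, and that of B5090 has 20 of 80 above.

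At PP2, 3 libraries lay furthest from the others by the share of genes above 2 or below 0.5 times the median. In the PP2 library of cow B5090, 20 of the 80 genes stood above 2 times the median of the other PP2 libraries and 1 below 0.5 times it, where 12.2% and 12.3% of all genes did. They included 9 of 19 mitochondrial ribosomal genes, SRPK3 (log2 ratio 5.75), HSPB2 (5), HSPB8 (4.67), FBXO31 (3.19), USP28 (2.86) and USP38 (2.23), while 0 of the 10 cytosolic ribosomal proteins were among them. This was the only library with raised muscle markers, and the part of muscle transcripts in these values was not tested.

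In the PP2 libraries of cows B4886 and B5064, 29 and 33 of the 80 genes stood below 0.5 times the median of the other PP2 libraries, where 34.6% and 35.2% of all genes did. Of these, 28 were low in both, which is 96.6% of the first list and 84.8% of the second, and 35% of the 80 genes, where 29.3% of all genes were low in both. The 28 were spread over the 10 groups, with 5 of 9 chaperones (all of them J-domain proteins), 4 of 5 kinases, 3 of 8 translation factors, 3 of 8 proteasome genes, 5 of 19 mitochondrial ribosomal proteins, 2 of 9 ubiquitin-conjugating, ligase and F-box genes and 2 of 10 cytosolic ribosomal proteins. In B5064 alone, 5 of the 10 cytosolic ribosomal proteins were that low. RPL5, which carries ribosomal RNA into the large subunit, stood at 175 CPM in B4886 and 250 CPM in B5064, against 696 to 1052 CPM in the other PP2 libraries. EIF3A, a scaffold subunit of its initiation complex, stood at 45.5 and 55.2 CPM against 179 to 291 CPM, and UBE3A at 9.68 and 16.3 CPM against 51.9 to 150 CPM.

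Other members of the same groups were not low there: RPS28 stood at 767 and 799 CPM, against 337 to 722 CPM in the other PP2 libraries. Without both libraries 1 gene was called higher at PP2 (RPS6KC1) and 1 lower (MRPL4, -0.68), or 2.5%, where 7.63% of all genes were called. Without these and the B5090 library, 1 of the 80 was higher (RPS6KC1, 0.42) and 8 lower, or 11.2%, where 11% of all genes were called. The 8 were PSMB2, PSMD13, FBXO31, MRPL4, MRPL9, MRPS14, MRPS27 and MRPS28, with log2 fold changes from -0.82 (MRPL4) to -0.48 (PSMB2 and MRPS27).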

How the data were processed

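RNA-seq libraries from 28 adipose tissue biopsies were used as 3 tables of raw read counts per Ensembl gene, which the authors deposited after alignment with HISAT2 (version 2.1.0) to bosTau7 and counting with HTSeq (version 0.6.1). The annotation release, strandedness and treatment of reads with several matches are not given in the sources used here. Groups and cows were taken from the labels. Gene symbols came from a supplementary table of the study, of which 1995 IDs were at hand, and other genes were not analysed here. Its fold changes and p-values were not used. The genes and the lists of related and marker genes were chosen with earlier results of these data known.

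Genes with at least 3 reads in 1 library of a comparison were tested with the quasi-likelihood test of edgeR (version 4.0.16, R 4.3.3) on TMM-scaled counts, 2 time points at a time with no term for cow, and p-values were adjusted over all genes by Benjamini-Hochberg (FDR). Calls were made at an FDR under 0.05. Levels are CPM after TMM scaling, group means use log2 CPM with a prior count of 1, errors are SD over libraries, and the share of a group is its percent of all counts. The comparison of 1 library with the others used genes with a median of at least 1 CPM. P-values measure the spread between libraries within a time point, each from a different cow. Libraries of the same cow at different time points were treated as independent. No pair of libraries held identical values. Scripts were tested on simulated data.

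Named genes were those called at PP1 or PP2, the gene of each group with the largest absolute fold change in each comparison, that with the highest mean CPM in each group, and those with the highest and lowest mean CPM of all. Others were named after their values were seen.

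Libraries of the same cow are paired by animal, as their labels show. Deviations from the time-point means were correlated, within a cow, at a mean of 0.149 from PreP to PP1 (over 0.1 in 6 of 8 cows) and 0.0106 from PreP to PP2 (3 of 8). Alternatives were the cow as a block, edgeR's filterByExpr, no filter, RLE size factors, total counts, a likelihood ratio test, 1 fit of all time points, DESeq2 (version 1.42.0), limma-voom with quality weights (limma version 3.58.1), a fold threshold, leaving out each cow, and leaving out the libraries that stood apart, the last chosen in part after seeing the data. Depth was 15293154 to 22284884 counts per library.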

Additional observations from a re-analysis of the deposited data

Results flagged for a closer look

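Of 102 sets of values (72 of named genes and 30 of gene groups, each at 1 time point), 17 had a highest or lowest library far from the rest by Dixon's criterion, where chance flags about 1 in 20 of sets that are independent and not chosen by their values. These sets share libraries, and many of the genes were named for a large fold change, which 1 extreme library can give, so the number of sets is not read against that share. Cow B5090 at PP2 accounted for 8 of them. It was the highest for EIF1 (1269 CPM, next 604), HSPB2 (168.5 CPM, next 13.2), HSPB8 (1296 CPM, next 131), FBXO31 (209.8 CPM, next 42.5) and SRPK3 (68.77 CPM, next 5.25). It was also the highest in the mean log2 CPM of the chaperones (6.428, next 5.39), of the ubiquitin-conjugating and F-box genes (5.622, next 4.92) and of the mitochondrial ribosomal proteins (5.193, next 4.55).

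Cow B5169 at PP1 accounted for 4, as the highest library for PSMA2 (121.7 CPM) and MRPL4 (93.64 CPM), and in the mean log2 CPM of the proteasome (5.918, next 5.50) and mitochondrial ribosomal (5.11, next 4.66) groups. Cow B5054 was the highest at PP1 in the mean log2 CPM of the translation factors (7.403, next 7.14).

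At PreP, MARS2 was highest in cow B4886 (5.338 CPM, next 3.17), NOP14 and HSPB8 were lowest in cow B5102 (34.42 CPM, next 48.4, and 45.9 CPM, next 90.96), and SRPK3 was lowest in cow B5064 (0.5521 CPM, next 1.43). The causes were not tested.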

How the results depend on the processing

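At PP1, 3 genes were called lower. The number was 1 with RLE size factors, 11 with limma-voom and quality weights, 0 in 1 fit of all 3 time points, 0 with the cow as a block, 0 past a log2 fold change of 1, 13 without the PP1 library of cow B5169, and 0 to 11 when each cow was left out. The shares of all genes called lower moved too, from 1.43% to 1.29% with RLE, 9.57% with limma-voom, 0.26% in 1 fit, 0.0758% with the block and 8.68% without that library. No gene was called higher, against 1 with total counts, 1 with the likelihood ratio test, 1 with DESeq2, 4 with limma-voom, 3 without the PP1 library of B5169 and 0 to 4 with a cow left out. Of all genes, 4.9% were called higher at PP1. The share was 4.77% with total counts, 6.78% with the likelihood ratio test, 7.55% with DESeq2, 10.4% with limma-voom and 9.31% without that library. At PP2, 0 were called lower, against 3 with total counts, 1 with DESeq2, 6 with limma-voom, 0 to 2 with a cow left out, 3 without the B5090 library, 1 without those of B4886 and B5064 and 8 without all 3, and 1 was called higher in each of the last 2. Of all genes, 2.51% were called lower at PP2, 2.72% with total counts, 3.92% with DESeq2, 6.03% with limma-voom, and 3.51%, 3.28% and 5.76% without these libraries. The median of the ribosome assembly genes between PP2 and PP1 was 0.226, and -0.072 with limma-voom, -0.066 without B4886 and B5064 and -0.069 without all 3 libraries. FBXO31 at PP2 turned from 0.51 to -0.70 without all 3. With the cow as a block, 71 genes in all were called at PP1 and 420 at PP2 in place of 1168 and 1178, and 0 of the 80 in either. The calls of FBXO31, MRPL4 and MRPL9 and those of the related genes FKBP7, HACE1 and UNC45B were lost in this fit. It takes no contrast from cows with 1 of the 2 time points. PPP1R15A passed with it too. The causes were not tested. Depth limits USP43 and RPS6KA6, whose lowest libraries lay near the level of 3 reads.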
